A study of Mus musculus with 2 samples.

Results

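Siglecs are receptors on blood cells that bind sialic acid, the sugar that caps many glycans on cell surfaces. The 7 mouse genes Siglecf, Siglece, Siglecg, Cd33, Siglech, Siglec1 and Cd22 were taken by gene name from the array's annotation, with older names matched by Entrez identifier. They had 10 probe sets, each named for that gene alone, among 18193 genes measured. Each gene was read from its probe set with the highest mean signal, and all 10 probe sets are given.

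Most Siglecs carry tyrosine motifs in their tails, called ITIMs, which recruit the phosphatases SHP-1 and SHP-2 and so dampen activation of the cell. Because a cell's own surface is covered in sialic acid, these receptors are known as a brake against attacking self. A subgroup related to CD33 changed quickly in evolution and lies mostly in a gene cluster, whereas Siglec1 and Cd22 are conserved between mammals. Siglech has no ITIM and signals through the adaptor DAP12, the product of Tyrobp.

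The cells were neutrophils grown from bone marrow of male C57BL/6 mice, either wild-type or mir-223 knockout. Progenitors of both genotypes had been kept for 6 days with granulocyte colony-stimulating factor and stem cell factor. Just before harvest both cultures were exposed for 8 min to cycloheximide (100 ug/ml), a blocker of translation. The RNA of each genotype went onto 1 array of Affymetrix's 3' design, and how many mice gave the cells is not stated in the labels.

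Neither genotype has a second array, so nothing here could be tested or set against replicate error. Each difference is the knockout value minus the wild-type value of log2(intensity + 16), a scale which understates the change of dim genes, and 1 on this scale is 2-fold. A gene counted as expressed when its mean was at or above the median of all probe sets, an intensity of 33.9. Where a gene had several expressed probe sets, their differences varied with an SD of 0.144, pooled over 5017 genes. This is a spread within these arrays and not a replicate error. No probe set was named for miR-223 itself, so the deletion could not be read from the arrays. All 14 measured neutrophil markers were expressed, among them S100a9 at 29262 in the wild type and 31305 in the knockout. In RNA from a whole culture, fewer cells of a type and less RNA per cell cannot be told apart.

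The microRNA that the knockout lacks is shown for reference, as the molecule whose loss defines the comparison. Its mature strands are given 5′ to 3′ from RefSeq with the seed, bases 2 to 8, in capitals. The gene lies on the plus strand of the X chromosome in build GRCm38.p6, with the 3p strand at chrX:96242884-96242905 and the 5p strand at chrX:96242842-96242864. Transcript sequences were not used here, so no match of these seeds to Siglec messages was searched for.
miR-223-3p: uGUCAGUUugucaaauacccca
miR-223-5p: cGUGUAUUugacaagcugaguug

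The Siglec genes divided into 4 that were higher in the knockout array and 3 that were slightly lower. Of all expressed genes 49.7% were higher and 50.1% lower. The higher Siglecs were Siglecf, Siglece, Siglecg and Cd33, all of the CD33-related cluster on chromosome 7, with a median difference of 0.52. The lower genes were Siglech, Siglec1 and Cd22, with a median of -0.11. Siglech and Cd22 also lie on chromosome 7, but outside that cluster. The grouping is by place in the cluster. Whether Siglech belongs to the CD33-related subgroup was not settled here, so the 4 higher genes do not stand for that whole subgroup. None of the 7 genes differed by 2-fold or more, a size reached by 0.145% of the 11006 expressed genes. By at least 0.5, 2 of the 7 were higher, against 1.13% of expressed genes, and none was lower, against 0.591%. The difference was above the SD between probe sets in 5 of the 7, against 34.3% of expressed genes. The median over the 7 genes was 0.32, and that over all expressed genes was -0.0004.

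**Figure D1:**
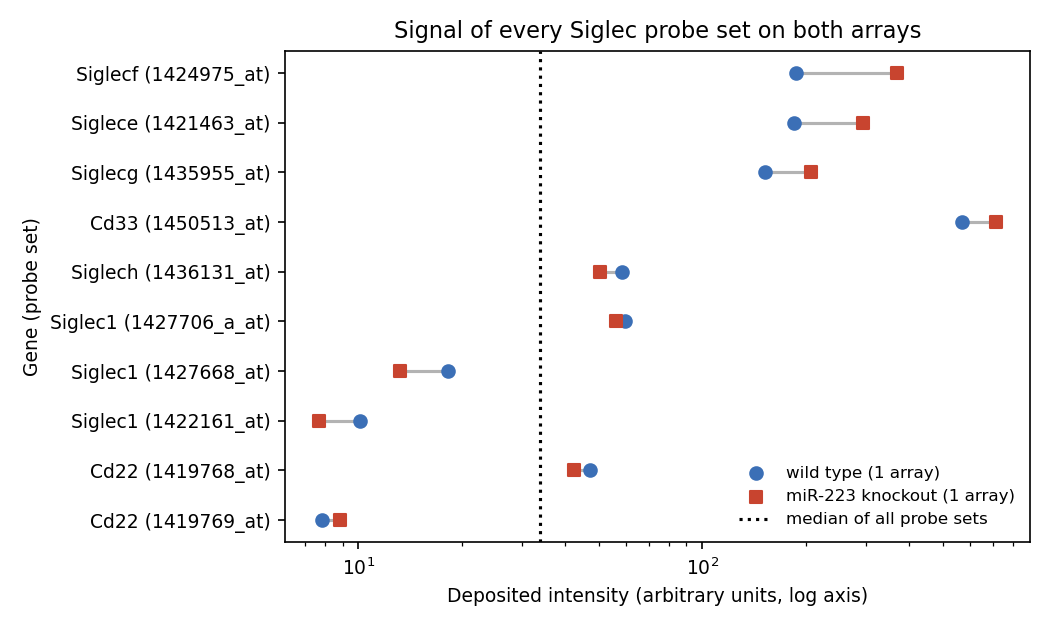
Deposited intensity (log axis, arbitrary units) of each of the 10 Siglec probe sets on the wild-type array (blue circles) and the knockout array (red squares); the dotted line is the median of all probe sets, 33.9. The knockout square lies to the right for Siglecf, Siglece, Siglecg and Cd33, and also for the dim Cd22 probe set 1419769_at. The 3 probe sets left of the line belong to Siglec1 and Cd22.

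Siglecf encodes a receptor best known from eosinophils and alveolar macrophages, whose engagement promotes eosinophil death. Its single probe set, 1424975_at, read 187 in wild-type cells and 370 in knockout cells. The knockout signal was thus 1.97 times the wild-type signal, a difference of 0.92. This was the largest difference of the family and the 15th highest among the 11006 expressed genes. Of 2154 other expressed genes whose mean level was within 0.5 of that of Siglecf, 4 had a difference as high or higher.

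Siglece encodes the main inhibitory Siglec of mouse neutrophils and monocytes. Probe set 1421463_at gave 184 in the wild type and 294 in the knockout, 1.59 times as much. The difference of 0.63 ranked 54th among expressed genes, and 12 of 2097 other genes of like mean level had one at least as high. Siglece and Siglecf were the 2 members past 0.5, which 124 expressed genes reached.

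Siglecg encodes an inhibitory receptor of B cells, above all B-1 cells, and of some myeloid cells. Its probe set 1435955_at read 152 in the wild type and 207 in the knockout, a difference of 0.41. Cd33, the namesake of the subgroup and a marker of the myeloid lineage, was read by probe set 1450513_at at 571 and 715, a difference of 0.32. Differences of this size were more common. Among other genes of like mean level, 3.82% had a difference at least as high as that of Siglecg and 3.58% one as high as that of Cd33. Each of the 4 higher genes had 1 probe set, so no second one on the arrays could repeat or contradict its direction. Receptors of this subgroup resemble each other in sequence, and whether their probes also bind each other's messages was not tested.

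Siglech marks plasmacytoid dendritic cells, the main producers of type I interferon. It read 58.5 in wild-type cells and 50.4 in knockout cells with probe set 1436131_at, a difference of -0.17. Of 2326 other expressed genes near that level, 329 had a difference as low or lower.

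Siglec1 encodes sialoadhesin, or CD169, the long adhesive Siglec of tissue macrophages, which has no ITIM. Its brightest probe set, 1427706_a_at, gave 59.7 in the wild type and 56.0 in the knockout, a difference of -0.07. The suffix of that probe set marks sequence shared between transcripts. The other probe sets were below the expression cut, 1427668_at at 18.2 and 13.2 and 1422161_at at 10.1 and 7.69. All 3 read lower in the knockout, by 0.07 to 0.22, which for the brightest was less than the SD between probe sets.

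Cd22 encodes the ITIM-bearing Siglec of B cells, which restrains the B cell antigen receptor. Probe set 1419768_at gave 47.2 in the wild type and 42.5 in the knockout, a difference of -0.11. The second one, 1419769_at, was below the expression cut at 7.83 and 8.83 and had the opposite sign, at 0.06. The direction of Cd22 was therefore not the same on its probe sets. Siglech, Siglec1 and Cd22 stood close above the expression cut, at mean log2 values of 6.14, 6.21 and 5.93 against a cut of 5.64.

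**Figure D2:**
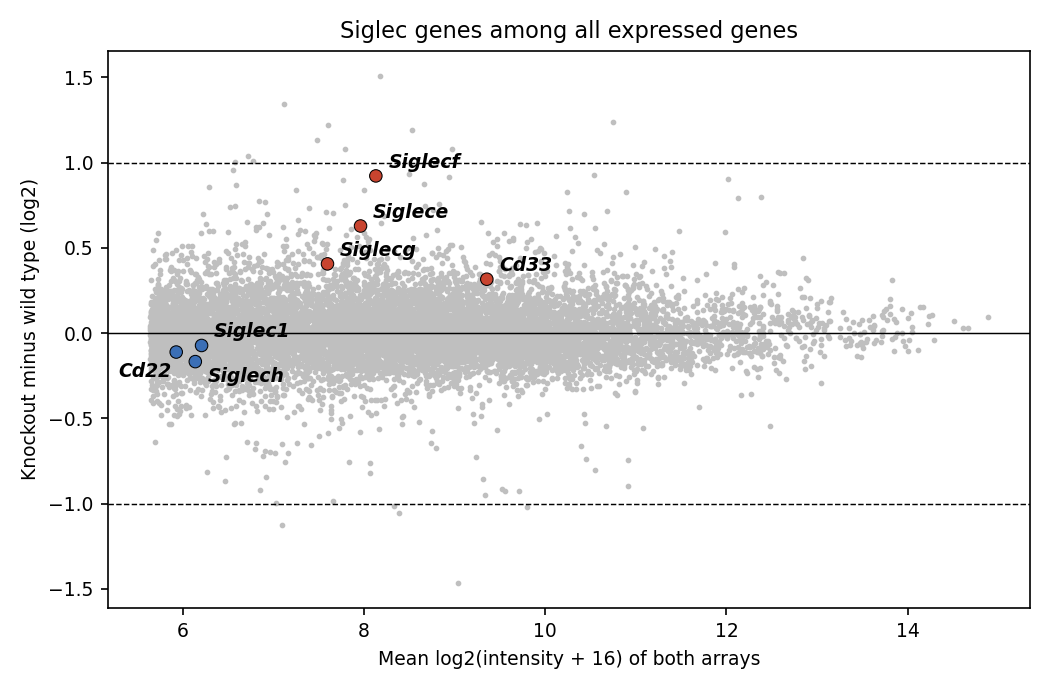
Difference (knockout minus wild type, log2) against the mean log2(intensity + 16) of both arrays for the expressed genes, 1 point per gene; red and blue circles are Siglec genes higher and lower in the knockout array, and dashed lines mark 2-fold. Siglecf at 0.92 lies just inside the upper 2-fold line, while Siglech, Siglec1 and Cd22 lie within the cloud of dim genes.

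Each gene was recomputed under 8 other ways of treating the values. Siglecf ranged from 0.79 to 1.03, Siglece from 0.53 to 0.74, Siglecg from 0.33 to 0.51 and Cd33 from 0.29 to 0.42. Each of these 4 genes has 1 probe set without a suffix for shared sequence, so 2 of the settings, which concern the choice of probe sets, could not move them. They were above 0 in the 24 values of the 6 settings that could. Changing the amount added before the log cannot turn a sign, however, and the spike-in shift given next can only raise a difference. For these settings the direction was fixed in advance. The arrays' hybridization spike-ins read lower on the knockout array, with a median difference of -0.11, and a shift of the knockout array by this amount raised the median of all genes equally. With it Siglecf stood at 1.03, past 2-fold, Siglec1 turned to 0.04, Cd22 stood at -0.002 and Siglech at -0.058. The sign of Siglec1 thus rests on the scale as deposited, and the differences of all 3 lower genes shrank with the shift.

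**Figure D3:**
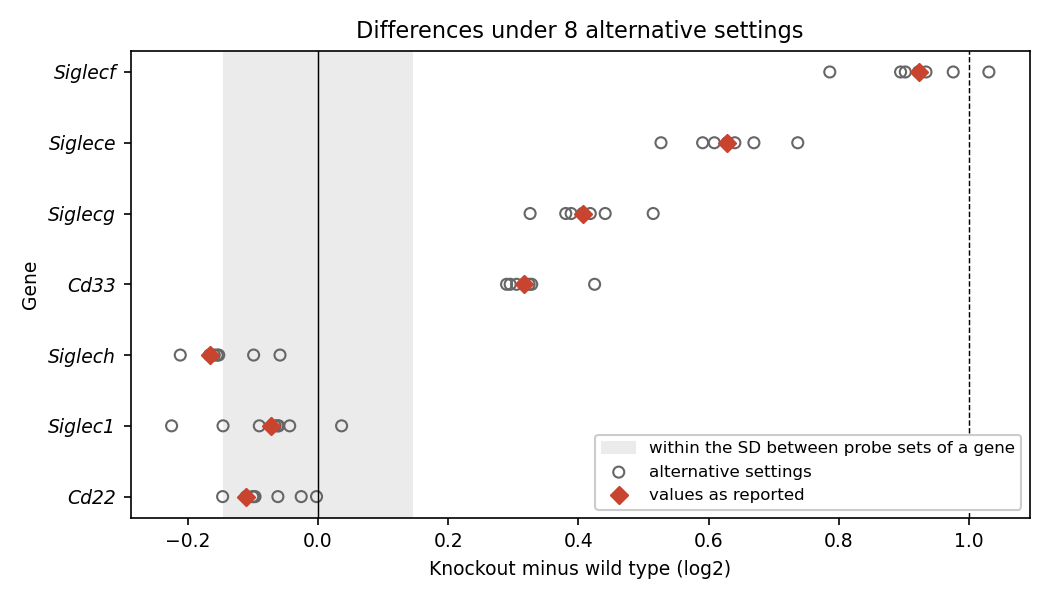
Difference (knockout minus wild type, log2) of each Siglec gene as reported (red diamonds) and under 8 alternative settings (open circles); the grey band is the SD between probe sets of a gene, 0.144 to either side of 0, and the dashed line is 2-fold. The open circles of Siglecf, Siglece, Siglecg and Cd33, 2 of which for each gene fall on the diamond by construction, stay to the right of the band, and those of Siglec1 lie on both sides of 0.

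The higher genes are neighbours on chromosome 7. In the gene order of RefSeq, Siglecf and Siglecg stand next to each other among measured genes, and Cd33 and Siglece follow. Between Siglecg and Siglece lie 11 measured protein-coding genes that are not members of the set studied. This window was looked at after the values were seen. Of those 11 genes 7 were expressed, and they differed less than Siglecf and Siglece. Nkg7, a granule protein of cytotoxic cells, read 847 in wild-type cells and 1181 in knockout cells, a difference of 0.47 that exceeded those of Siglecg and Cd33. Lim2 stood at 0.23 and Zfp819 at -0.23. Etfb, a mitochondrial electron carrier subunit, stood at 0.08. With 5 measured genes added on each side, 8 of 11 expressed neighbours stood above 0 and 3 below, around a median of 0.10. Siglech and Cd22 also lie on chromosome 7, outside this window, and stood at -0.17 and -0.11. Mag, a further Siglec gene on that chromosome, whose product holds myelin to axons, read 40.2 and 43.4, a difference of 0.08. No probe set was named for Siglec15.

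**Figure D4:**
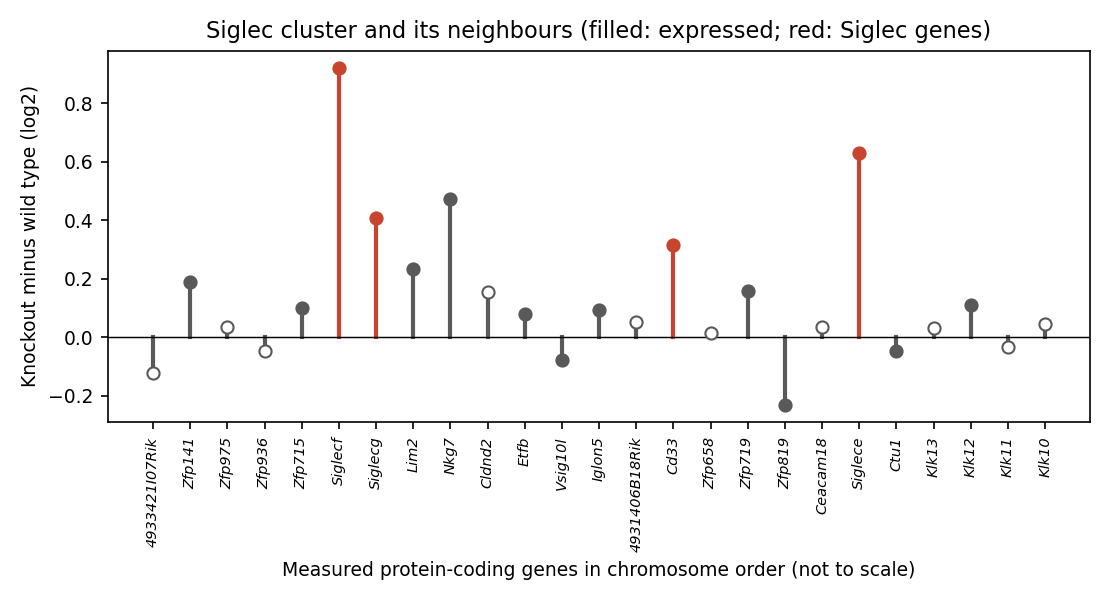
Difference (knockout minus wild type, log2) of the measured protein-coding genes around the CD33-related Siglec cluster in chromosome order, not to scale; red marks the Siglec genes and filled points are expressed genes. Siglecf (0.92) and Siglece (0.63) stand above every neighbour, and Nkg7 (0.47) stands above Siglecg and Cd33.

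Because these genes were higher together, the 250 bases before their start sites were read from RefSeq and searched on both strands for GAGGAA, the core bound by PU.1 and other ETS factors of myeloid cells. The motifs were chosen with the values known. Start windows were held for all members but Siglec1, 7 windows in all, with 2 for Siglecg that overlap over most of their length. GAGGAA stood in windows of Siglecf, Siglece, Cd33 and 1 of the 2 of Siglecg, and in none of Cd22 or Siglech. It occurs in 23.3% of all 32851 such windows. Siglece held it 3 times, beginning at -87, -36 and -11, where -1 is the last base before the start. Other motifs were GATAA, the GATA core, in 0 of 7 windows against 22.6% of all, TTNNGNAA, a C/EBP pattern, in 3 against 36.8%, and TGTGGT, the RUNX core, in 2 against 14%. The GAGGAA and TTNNGNAA matches of Siglece nearest to its start both begin at -11 and overlap. A match is a string of letters and not a measured binding site, and a role of these factors was not tested. The windows of the 2 genes with the largest differences and of Cd22, which has no match, are shown 5′ to 3′ along each gene, with GAGGAA or its reverse complement in capitals. They lie at chr7:43351091-43351340 on the plus strand for Siglecf, at chr7:43660162-43660411 on the minus strand for Siglece and at chr7:30879029-30879278 on the minus strand for Cd22, in build GRCm38.p6.
Siglecf: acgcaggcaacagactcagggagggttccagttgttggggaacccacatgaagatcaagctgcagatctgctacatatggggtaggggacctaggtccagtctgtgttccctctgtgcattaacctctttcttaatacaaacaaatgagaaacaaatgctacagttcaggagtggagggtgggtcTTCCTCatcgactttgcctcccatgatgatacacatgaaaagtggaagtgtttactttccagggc
Siglece: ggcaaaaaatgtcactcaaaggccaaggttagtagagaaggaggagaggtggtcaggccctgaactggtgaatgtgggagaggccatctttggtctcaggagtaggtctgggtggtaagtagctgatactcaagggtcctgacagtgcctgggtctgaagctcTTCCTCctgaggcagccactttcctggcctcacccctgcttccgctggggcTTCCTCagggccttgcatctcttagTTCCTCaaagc
Cd22: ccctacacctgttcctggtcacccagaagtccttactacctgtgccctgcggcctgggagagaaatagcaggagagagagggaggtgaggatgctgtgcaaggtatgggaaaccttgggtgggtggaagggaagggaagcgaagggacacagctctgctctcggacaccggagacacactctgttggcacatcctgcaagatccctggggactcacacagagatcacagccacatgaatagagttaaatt

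Siglecs bind glycans that are built in several steps, and most genes of this path differed less than Siglece, with Npl about as high. Sialic acid is made by Gne, Nans and Nanp, activated by Cmas and carried into the Golgi by Slc35a1. All 10 listed genes of its synthesis, modification and breakdown were expressed, 8 of them higher and 2 lower, and the median was 0.10. Npl, the lyase that breaks free sialic acid down, read 984 in the wild type and 1520 in the knockout, a difference of 0.62. Cmah, which converts the acetyl form of sialic acid into the glycolyl form that mice make and humans lack, stood at 0.44, with expressed probe sets from 0.17 to 0.81. Slc35a1 stood at 0.22, but its probe sets ran from -0.15 upward. Renbp, a renin-binding epimerase of this path, stood at 0.18.

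Sialyltransferases, which attach the sugar, had 8 higher and 5 lower genes among 13 expressed of 20 measured, with a median of 0.02. St8sia4, which builds polysialic acid, had the largest difference, with intensities of 953 and 1260 and both expressed probe sets at 0.39 and 0.40. St3gal5, the enzyme that starts ganglioside synthesis, was lower on both of its probe sets, at -0.33 and -0.42. St6galnac1 stood at 0.23. St6gal1, which makes the linkage that Cd22 prefers, stood at -0.16 on a dim probe set of 50.4 and 43.3. Of the sialidases, which remove the sugar, Neu1 of the lysosome was the expressed gene of 3 measured, at 0.06.

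Carriers and partners of Siglecs were divided, 4 higher against 5 lower, and had a median of -0.02. Itgam, the CD11b chain of the neutrophil integrin that Siglec-E is known to bear on, read 755 in wild-type cells and 1191 in knockout cells, a difference of 0.65. Selplg, the selectin ligand PSGL-1, stood at 0.25. Cd24a, a glycoprotein partner of Siglec-G, stood at 0.21, with 3 probe sets between 0.21 and 0.27. Lgals3bp, a secreted sialylated glycoprotein, stood at -0.17.

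The enzymes that carry out ITIM signalling were near 0. Ptpn6, encoding SHP-1, stood at -0.02, Ptpn11, encoding SHP-2, at -0.09 and Inpp5d, the lipid phosphatase SHIP-1, at 0.03. The other expressed probe set of Inpp5d stood at 0.17. The 8 expressed genes of this list split 4 to 4 around a median of 0.005. Lyn, the kinase that phosphorylates ITIMs in many blood cells, had no probe set named for it alone. The exception in size was Socs3, a feedback inhibitor of cytokine receptors, at 0.57, with probe sets from 0.27 to 0.89. Fgr, a Src family kinase of myeloid cells, stood at 0.21 and at 0.003 on its other probe set, and Fyn at -0.18. Of the adaptors and kinase used by activating receptors, Fcer1g stood at 0.15, Syk at 0.11, Tyrobp at 0.04 and Hcst at 0.02. The 4 expressed probe sets of Syk ran from -0.0005 to 0.38.

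**Figure D5:**
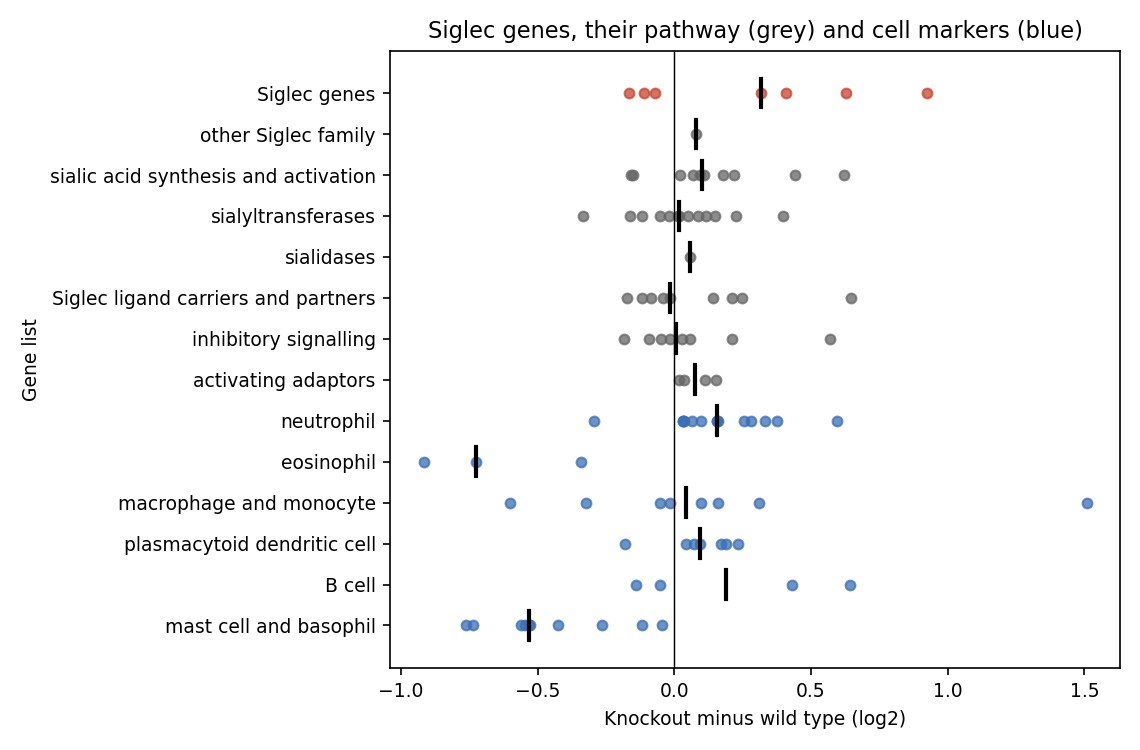
Difference (knockout minus wild type, log2) of each expressed gene in the Siglec family (red), the lists of its pathway (grey) and the cell type marker lists (blue), 1 point per gene; black bars are medians. The Siglec median of 0.32 stands right of those of the pathway lists, and the eosinophil and the mast cell and basophil medians stand left of 0.

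Several Siglecs are markers of cells other than neutrophils, so the other markers of those cells were read beside them. The expressed eosinophil markers differed in direction from Siglecf, and the part of eosinophils in its signal was not tested. All 3 expressed of 6 measured were lower, Prg3 at -0.92, Prg2 at -0.73 and Epx at -0.34, and the summed intensity of the 6 was 1079 in the wild type and 665 in the knockout. The eosinophil receptors Ccr3 and Il5ra were below the expression cut on these arrays, as was Alox15. Mast cell and basophil markers were also lower, all 10 expressed of 11 measured, with a median of -0.53 and summed intensities of 6741 and 4709. Cma1, a mast cell chymase, stood at -0.76 and Cpa3, a mast cell carboxypeptidase, at -0.74.

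Neutrophil markers were higher in 13 of 14, with a median of 0.15 and summed intensities of 180423 and 192072. Cd177, a surface protein of neutrophils, stood at 0.59, Cxcr2, a chemokine receptor of mature cells, at 0.38, Csf3r, the receptor of granulocyte colony-stimulating factor, at 0.33 and Camp at -0.29. Siglece and Siglecf exceeded all of these, and Siglecg and Cd33 lay among them. Whether a shift in the maturity or share of neutrophils had a part in the Siglec differences was not tested.

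Macrophage and monocyte markers were divided, 4 higher and 4 lower of 8 expressed among 16 measured, with a median of 0.04 and summed intensities of 6342 and 6715. Apoe stood at 1.51 and Cd68 at 0.31, while Cx3cr1 stood at -0.60 and Cd14 at -0.32. Adgre1, an adhesion receptor of macrophages, read 311 in the wild type and 307 in the knockout, a difference of -0.02. Csf1r, the receptor of macrophage growth factor, stood at 0.10, with expressed probe sets from -0.03 to 0.15. C1qb, a complement chain, stood at 0.16. Vcam1, an adhesion molecule, stood at -0.05, but its expressed probe sets ran up to 0.32. The other 8 measured markers, Marco, Mrc1, Itgax, Mertk, Cd163, Cd5l, C1qa and C1qc, were below the expression cut. The part of macrophages in the signals of Siglec1 and Siglecf was not tested.

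Plasmacytoid dendritic cell markers, beside Siglech, had 6 higher and 1 lower expressed gene among 11 measured, with a median of 0.09 and summed intensities of 1437 and 1550. Tcf4 stood at 0.23, Tlr7 at 0.19, Irf8 at 0.17, Tlr9 at 0.09, Klk1 at 0.07, Cox6a2 at 0.04 and Bst2 at -0.18. The other 4 measured, Ccr9, Ly6d, Pacsin1 and Spib, were below the cut. B cell markers had 2 higher and 2 lower expressed genes among 10 measured, with summed intensities of 971 and 1391. Ighm, with probe sets from -0.14 to 0.94, stood at 0.64, and Cd79b at 0.43. The lower ones, as was Cd22, were Pax5 at -0.14 and Vpreb3 at -0.05. Ighm made up most of the sum, and without it the other 9 genes summed to 309.8 and 350 in the wild type and the knockout. Ms4a1, Cd79a, Ebf1, Blk, Cr2 and Fcer2a, which mark B cells as Cd22 does, were below the cut. The part of these cells in the signals of Siglech, Siglecg and Cd22 was not tested.

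The genes whose pair of values lay nearest to that of Siglecf were Rnase4, a secreted ribonuclease, F7, coagulation factor VII, Dhrs3, a retinal reductase, Gngt2, a G protein gamma subunit, and Tspan2, a tetraspanin. The measure was the Euclidean distance of the log2 values over 2 arrays, which ran from 0.19 for Rnase4 to 0.29 for Tspan2. Rnase4 read 175 in wild-type cells and 327 in knockout cells, a difference of 0.84. With 2 arrays such a likeness says only that the pairs of signals are similar.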

How the data were processed

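The table deposited by the authors holds, for every probe set, a linear intensity on each array. Per the labels' protocols, RNA was extracted with Trizol and biotinylated with an Affymetrix 3' IVT Express kit. In the sources used here, how background was removed and probes were summarized and normalized is not given. The intensities were used as deposited (medians of 34.1 and 33.7).

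Of 45101 probe sets, 64 were controls. Of the others, 34945 were annotated to 1 gene, 932 to several genes and 9160 to no gene. For 34741 probe sets the Entrez identifier was found in RefSeq (GRCm38.p6), which then gave the symbol, changed or not. Python 3.11.15, pandas 2.3.3 and statsmodels 0.14.6 were used. The calculation was tested on simulated data with planted changes larger than any Siglec difference. This check does not bear on differences of the size reported here. With 1 array per genotype no test could be made, and the number of arrays limits the precision.

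Named were every Siglec probe set, up to 4 genes of each list with the largest differences, genes past 2-fold, adaptors and Siglec partners, and the 5 genes nearest to Siglecf. Chromosomal neighbours, and markers beyond this rule, were named after their values were seen. Members and lists were chosen with earlier results of these data known. The lists hold no Siglec member.

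Alternatives were pseudocounts of 1 and 64, median centring, quantile normalization, loess (span 0.3), a spike-in shift, the mean of probe sets, no shared-sequence suffixes, 2 other expression filters and lower fold thresholds.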

Additional observations from a re-analysis of the deposited data

How the results depend on the processing

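No paired analysis was possible because each genotype has 1 array and no result comes from a test. Of 56 gene values under alternatives, 11 could not move, because the gene's probe set was the same. Of the other 45, 43 kept their sign and moved by less than 0.144, though a change of pseudocount cannot turn a sign. Siglec1 turned to 0.036 with the spike-in shift and stood at -0.22 without shared-sequence suffixes. The spike-in shift put 1 Siglec gene past 2-fold, and thresholds of 1.5-fold or 0.5 counted 2. Over the 3 Siglec genes left by the filter at the 75th percentile the median was 0.63. The ligand carrier median became 0.091 with the spike-in shift, 0.091 with the mean over probe sets and 0.062 with that filter. The inhibitory signalling median became -0.0082 under quantile normalization and -0.033 without shared-sequence suffixes. Without those suffixes the macrophage and monocyte median was -0.052 and the B cell median -0.054. The B cell median was 0.030 with no filter and 0.64 with the stricter one, and the eosinophil median -0.24 with no filter. The causes were not tested. Siglech, Siglec1 and Cd22 were read from dim signals close to the expression cut.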
